A study of Lotus japonicus with 6 samples.

Results

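Isoflavone 2'-hydroxylases of the cytochrome P450 group CYP81E were measured in leaves of the legume Lotus japonicus, in wild type plants and in plants labelled as overexpressing the transcription factor LjMyb14. The members are the non-control spots of the array whose name begins with I2H or CYP81E. They comprise 13 names, 26 probes and 88 spots, and because 5 loci carry a name of each code, they stand for 8 genes out of the 2881 gene entries on the array. All 26 probes passed the filter on dim signal, and 23 of them were well above background on all 6 arrays.

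Cytochrome P450 enzymes of the CYP81E group sit in the endoplasmic reticulum and add a hydroxyl group to the B ring of isoflavones. Hydroxylation at the 2' position lets isoflavone reductase and the enzymes after it build pterocarpans and isoflavans, the antimicrobial phytoalexins of many legumes. In Lotus japonicus the main product of this route is the isoflavan vestitol.

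Wild type was accession MG20 (3 arrays, labelled as biological replicates), and the transgenic group was 3 independent MG20 lines labelled as carrying LjMyb14 under the constitutive Lotus ubiquitin promoter (1 array each). All plants were grown in vitro on MS medium at reduced strength, leaf was taken in both groups, and the sources used here do not give plant age. The array is a 1-colour (Cy3) Agilent design of regulators and secondary-metabolism genes. Arrays 1 and 3 of wild type differed by less than the sampling noise: their difference had a variance 0.545 times what repeated spots of a probe predict, while the other 5 pairs of arrays of the same group gave 2.27 to 8.60 times. They were averaged and counted as 1 sample, which makes n 2 for wild type and 3 for the lines.

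The label of the lines was not borne out by the tested LjMYB14 probe, which lay near background and gave a log2 fold change of 0.11 (limma adjusted p = 0.939), whereas LjMYB76a, another MYB gene, was higher by 7.45 to 7.70 in each line on the log2 scale. No array name began with the codes searched for leaf photosynthesis or nodule genes, so the labelled tissue could not be checked by such markers. No spot was saturated, between 71.7% and 78.0% of spots per array were well above background, and the 75th percentile of signal lay between 364 and 404.5 intensity units.

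The family did not move as 1 block. I2H1 rose, with all lines above wild type, CYP81E6 was higher by a smaller amount that did not pass the test, I2H3 and CYP81ELT_1 overlapped wild type, and I2H4, I2H5, I2H6 and I2H7 had lower means with a wide spread between lines. By the brightest probe of each gene, 1 of 8 genes was called higher and 0 lower at an adjusted p under 0.05 (limma, Benjamini-Hochberg over 5039 probes), and 3 of the 8 (I2H1, CYP81E6 and, with a negative change, I2H5) had an unadjusted p under 0.05, as did 19.5% of all tested genes. Over all 2487 tested genes, 2.21% were called higher and 1.09% lower. The family's median log2 fold change was -0.60, beside -0.09 over all tested genes; with normexp background correction these were -0.30 and -0.07. In bulk leaf RNA, more or fewer cells of a type and more or less RNA per cell cannot be told apart.

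**Figure D1:**
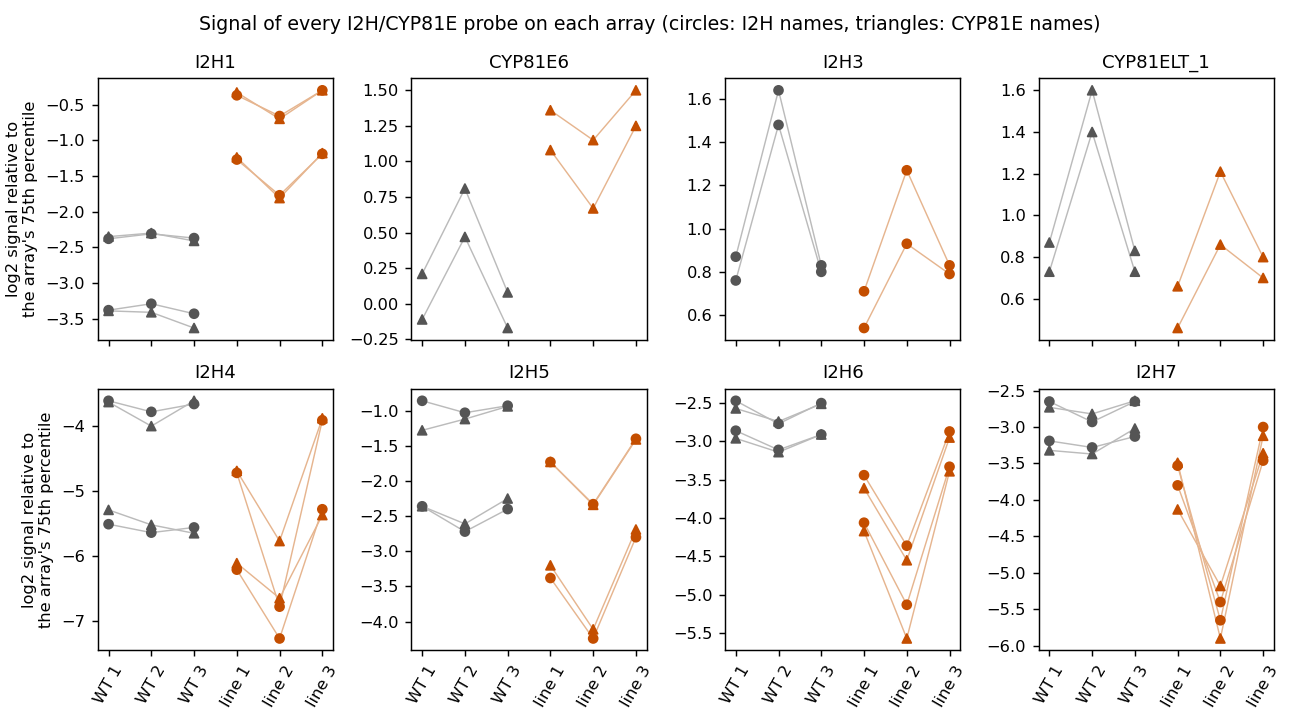
Log2 signal after subtracting each array's 75th percentile (vertical axis, a separate scale in each panel) of every probe of the 8 genes on the 3 wild type arrays (WT, grey) and the 3 transgenic lines (orange). Circles are probes named I2H, triangles probes named CYP81E, and the thin lines only join the values of 1 probe. The transgenic lines stand clear above wild type for I2H1 and above it by a small gap for CYP81E6. Line 2 is lowest for I2H4 to I2H7.

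I2H1, which shares the locus chr2.CM0250.70.nc with a CYP81E name, was measured by 4 probes and 14 spots. At its brightest probe, CYP81E_chr2.CM0250.70.nc, the signal was 76.1, 74.0 and 73.3 intensity units on wild type arrays 1, 2 and 3, and 323, 240.2 and 328 units in lines 1, 2 and 3. Every line lay above every wild type array, and the wild type arrays were nearly equal while line 2 was the lowest of the lines. The mean log2 level went from -2.34 ± 0.06 (SD, n = 2) to -0.44 ± 0.22 (SD, n = 3), a rise of 1.90 ± 0.22 (SE) on the log2 scale or 3.73-fold, with a 95% confidence interval from 2.55-fold to 5.45-fold (limma adjusted p = 0.0218). The changes in lines 1, 2 and 3 were 2.01, 1.64 and 2.04.

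The other 3 probes of this locus gave similar log2 fold changes from separate spots. All 4 were called, with log2 fold changes from 1.90 to 2.05 and limma adjusted p from 0.0191 to 0.0269. On the whole array 2.3% of the tested probes were called higher. The 4 probes read the same gene on the same arrays, so they are not 4 independent cases to set beside that share. Each I2H1-named probe was paired by brightness with a probe of the other code. After subtracting each probe's own mean, the brighter pair differed by at most 0.04 on the log2 scale and the dimmer pair by 0.15. Whether the probes of a pair share a sequence was not tested. On the I2H1-named probe with 5 spots, CUST_237_PI399407686, single spots ran from 69.1 to 85.9 units over the wild type arrays and from 231 to 392 units over the lines, so no spot of a line was as dim as any wild type spot. The dimmer I2H1-named probe, CUST_238_PI399407686, ran from 32.8 to 41.9 units in wild type and from 97.6 to 184 in the lines, again with a gap between the groups.

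Both the size of this rise and its call depended on the processing. With normexp background correction it was called at 1.34 (adjusted p = 0.015). Leaving out single arrays moved its log2 fold change between 1.83 and 2.03, and the call ended without line 1 (limma adjusted p = 0.125) and without line 3 (limma adjusted p = 0.0523). It also ended in a fit blocked on slide row (2.01, limma adjusted p = 0.156) and with scaling on spike-in probes (1.68, limma adjusted p = 0.362). Calls fell over the whole array in these fits. Of 5039 probes, 116 were called higher and 57 lower in the main fit. The counts were 13 and 1 without line 1, 47 and 30 without line 3, 2 and 0 with the row block, and 13 and 8 with spike-in scaling. The call of I2H1 ended too without wild type array 2 (1.94) and without wild type arrays 1 and 3 together (1.86). Each of these left 1 wild type sample.

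**Figure D2:**
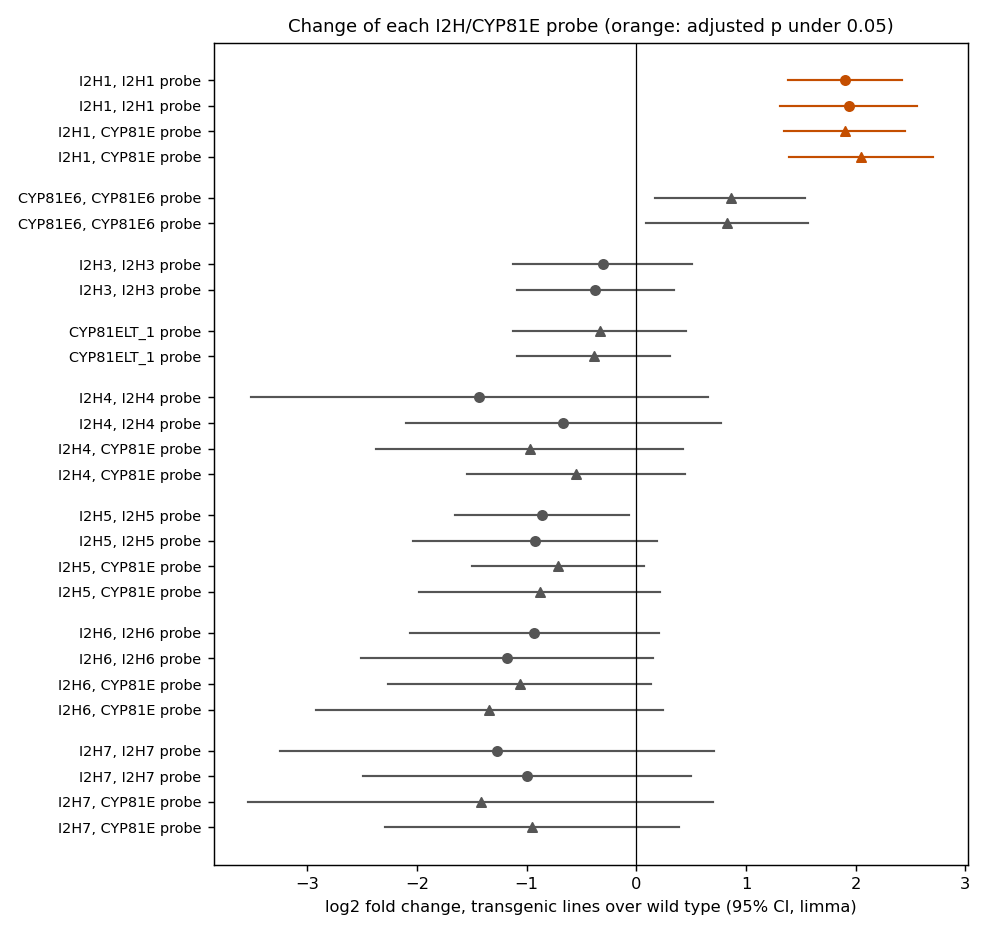
Log2 fold change of the transgenic lines over wild type for each of the 26 probes, with 95% confidence intervals from limma (n = 2 wild type samples and 3 lines). Circles are probes named I2H and triangles probes named CYP81E; the 4 I2H1 probes, in orange, passed the adjusted test and lie between 1.90 and 2.05, and the other 22 did not pass.

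I2H3, named chr2.CM0250.30.nc, is the other family gene whose name carries chr2.CM0250. Its brightest probe read 707, 1138 and 689 units on wild type arrays 1, 2 and 3 and 664, 945 and 717 units in lines 1, 2 and 3. The groups overlapped, since wild type array 2 was the highest of all arrays and line 2 came next. The log2 fold change was -0.30 ± 0.33 (SE) and its 95% confidence interval, from -1.12 to 0.51 (adjusted p = 0.679), does not reach the rise of I2H1. Its change was lower than that of I2H1 by 2.20 on the log2 scale, or 4.60-fold (95% confidence interval of the difference from -3.12 to -1.29; limma adjusted p = 0.00112). The same fit called 93.2% of all other probes lower than I2H1, the reference chosen with its earlier call known. Such a call, for I2H3 or any other member, thus shows nothing particular about that member. A scaling factor per array cancels in this difference between genes, so settings that only rescale arrays leave it unchanged. Over the settings tried the difference lay between -2.56 and -1.61.

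CYP81ELT_1, a name without a locus identifier, varied with I2H3 over the arrays. Its brightest probe read 712, 1103 and 691 units in wild type and 639.6, 907 and 703 units in the lines. For both names wild type array 2 was highest, line 2 came next and line 1 was lowest. CYP81ELT_1 had a log2 fold change of -0.33 ± 0.32 (SE; adjusted p = 0.632). With each probe set relative to its own mean over the 6 arrays, the probes of the 2 names, paired by brightness, differed by at most 0.04 on the log2 scale on any array. For comparison, in 10 pairs of probes that carry both codes of 1 locus the largest such difference was 0.04 to 0.87. The sources used here do not say whether I2H3 and CYP81ELT_1 are 1 gene, and if they are, the family holds 1 gene fewer than counted.

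CYP81E6, also without a locus identifier, was higher in the lines but not called. The brightest probe read 448, 640.2 and 410.1 units on wild type arrays 1, 2 and 3 and 1041, 870.2 and 1135 units in lines 1, 2 and 3. Each line stood above each wild type array, with wild type array 2 the closest to the lines. Wild type had a mean log2 level of 0.48 ± 0.47 (SD, n = 2), and the lines one of 1.34 ± 0.17 (SD, n = 3). The log2 fold change was 0.86 ± 0.27 (SE), or 1.81-fold, with a 95% confidence interval from 1.13-fold to 2.92-fold (adjusted p = 0.177). Its second probe gave 0.83 (adjusted p = 0.212). With all 6 arrays counted singly the brightest probe passed the test, at 0.97 (adjusted p = 0.0448), in a fit that called 6.71% of all genes higher and 5.63% lower. The second probe did not pass in that fit, at 0.93 (limma adjusted p = 0.0586). The change of CYP81E6 was lower than that of I2H1 by 1.04 on the log2 scale (95% confidence interval of the difference from -1.74 to -0.34; limma adjusted p = 0.0108), a call that ended without wild type array 2 (-0.74, adjusted p = 0.134) and in the fit blocked on slide row (-1.13, adjusted p = 0.0565).

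The remaining 4 genes, I2H4 to I2H7, are named after separate LjSGA sequences, and each carries both codes. I2H5 (LjSGA_046308.1) read 213, 179 and 204 units in wild type against 122, 77.9 and 152 units in lines 1, 2 and 3. All lines lay below all wild type arrays, with line 2 lowest and line 3 nearest to wild type. The log2 fold change was -0.86 ± 0.32 (SE), with a 95% confidence interval from -1.65 to -0.07 and an adjusted p of 0.223.

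I2H6 (LjSGA_080540.1) read 70.1, 53.5 and 68.5 units in wild type and 37.7, 19.2 and 55.2 units in the lines. Line 3 was just above the level of wild type array 2 in raw units but below it once each array was scaled, so the scaled groups did not overlap. Its log2 fold change was -0.93 ± 0.46 (SE; adjusted p = 0.339).

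I2H7 (LjSGA_065168.2) had the widest spread between lines. Its brightest probe read 61.9, 47.9 and 62.0 units in wild type and 35.1, 7.80 and 50.5 units in lines 1, 2 and 3, so that line 2 lay far below the other arrays while line 3 was above wild type array 2 in raw units and just below it once scaled. The log2 changes in lines 1, 2 and 3 were -0.74, -2.86 and -0.21, and their mean, -1.27 ± 0.79 (SE), had an adjusted p of 0.455. The change in line 2 rests on a low signal. All spots of the brightest probe were well above background there. Another I2H7 probe, CUST_105_PI398500264, read 6.74 units in line 2, with only 0.5 of its spots well above background.

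I2H4 (LjSGA_054441.1) came closest to background. The brightest of its 4 probes read 31.2, 23.5 and 32.1 units in wild type and 15.7, 7.27 and 27.7 units in the lines, with line 3 inside the wild type range and line 2 lowest. The log2 fold change was -0.97 ± 0.56 (SE; adjusted p = 0.414). The other 3 probes of I2H4 are the only family probes that were not well above background on every array, and in line 2 none of these 3 was.

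Across these 4 genes the lines kept 1 order. At all 16 probes the change was lowest in line 2, then line 1, then line 3: it ranged from -3.15 to -1.16 in line 2, from -1.13 to -0.57 in line 1 and from -0.44 to 0.31 in line 3. These probes stand for 4 genes read on the same arrays, so they are not 16 independent cases. Over all tested genes, 30.5% showed this order at their brightest probe. The median changes of tested probes with a wild type level between -4 and -1 had this order too. They were -0.35 in line 2, -0.08 in line 1 and 0.02 in line 3. The adjusted p of the 16 probes lay between 0.223 and 0.596, so none passed after adjustment over 5039 probes. Without line 2 the log2 fold changes shrank to -0.61 for I2H5, -0.53 for I2H6, and -0.47 for I2H4 and I2H7 alike, with adjusted p from 0.145 to 0.405. With all lines kept, normexp background correction also gave smaller changes: -0.59 for I2H5, -0.43 for I2H6, -0.28 for I2H4 and -0.45 for I2H7 (adjusted p from 0.154 to 0.309).

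**Figure D3:**
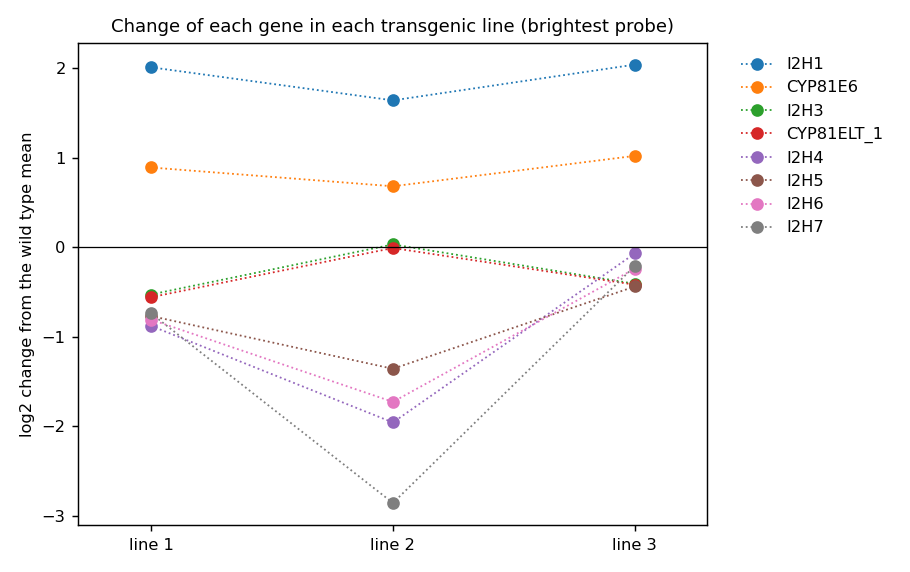
Log2 change from the wild type mean (vertical axis) in each of the 3 transgenic lines, for the brightest probe of each of the 8 genes; dotted lines only join the values of 1 gene. I2H1 lies between 1.64 and 2.04 in every line, whereas I2H7 runs from -2.86 in line 2 to -0.21 in line 3. The I2H7 signal in line 2 was only 7.80 units.

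Line 2 also stood apart in measures outside the family. Over the 1695 tested probes whose wild type level lay between -4 and -1 on the log2 scale, the range that holds most probes of I2H4 to I2H7, the median change was -0.08 in line 1, -0.35 in line 2 and 0.02 in line 3. Spike-in probes lay 0.82 above the 75th percentile in line 2, against -0.27 to 0.16 on the other arrays. The part of these shifts in the low line 2 values of I2H4 to I2H7 was not tested. In line 2 the change of I2H5, I2H6, I2H4 and I2H7 at the brightest probe was -1.36, -1.73, -1.96 and -2.86. The brightest I2H5 probe, at a wild type level of -0.96, lay just outside the range of that median.

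Counted as arrays that do not overlap, 2 of the 8 genes (I2H1 and CYP81E6) had all lines above all wild type arrays and 3 (I2H5, I2H6 and I2H7) had all lines below them on the scaled log2 level. For I2H6 and I2H7 line 3 lay above wild type array 2 in unscaled units, and 1 of the 4 probes of I2H7 overlapped after scaling too. Over all tested genes the shares were 15.4% and 21.1%. I2H5, I2H6 and I2H7 also had the order of the lines described above, and 5.47% of all tested genes had that order together with all lines below wild type.

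The change of all 7 other genes was called lower than that of I2H1 when each was set against its brightest probe within the same sample (limma adjusted p from 0.000510 to 0.0108). The same fit called 93.2% of all other probes on the array lower than I2H1 and 0.913% higher, so the 7 calls place I2H1 near the top of the array and show nothing particular about the other members. The differences at the brightest probes ran from -1.04 for CYP81E6 to -3.17 for I2H7.

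Pattern likeness to I2H1 was measured as the root mean square difference of log2 signal over the 6 arrays, after subtracting each gene's own mean. The most alike genes outside the family were MDR125_chr2.LjT13P17.10.nd (0.147), a transporter code, and CYP85_LjSGA_048957.1 (0.199), whose family makes brassinosteroids in Arabidopsis and tomato. Next came MDR136_LjSGA_016211.1 (0.206), UGT71B_LjSGA_126577.1 (0.219), of a family of glycosyltransferases, and IFR4_ (0.232), an isoflavone reductase code. Within the family the nearest was CYP81E6, at 0.512, while I2H3 was at 1.11 and I2H7 at 1.76.

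MDR125_chr2.LjT13P17.10.nd had log2 changes of 1.73, 1.28 and 1.83 in lines 1, 2 and 3 (1.61 on average, limma adjusted p = 0.0393). Its change, like that of I2H1, was smallest in line 2. As it was picked for likeness to I2H1 on these same arrays, this is not separate evidence. IFR4_, whose enzyme class acts on 2'-hydroxylated isoflavones, changed by 1.69, 1.77 and 1.62 (1.69 on average, limma adjusted p = 0.0208), with line 2 not the lowest. CYP85_LjSGA_048957.1 and UGT71B_LjSGA_126577.1 each stood well above background on only 2 of the 3 wild type arrays, and MDR136_LjSGA_016211.1 was not called (log2 fold change 1.92, adjusted p = 0.0534).

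The steps around the 2'-hydroxylases were described by lists of codes. Before the isoflavone skeleton forms, 10 of 35 tested general phenylpropanoid genes (PAL, C4H or CYP73A, and CoumLig codes) were called higher and 0 lower, with a median log2 fold change of 1.14. In chalcone formation (CHS, CHR, PKR and CHI) the counts were 2 and 0 of 45, with a median of 0.63. The isoflavone core (CYP93C, the isoflavone synthases, and HID, the dehydratases) had 1 of 11 called higher, HID3 (1.73, adjusted p = 0.0499), with a median of -0.05.

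After the 2'-hydroxylation, 2 of 13 tested genes coded IFR, VR or PTR were called higher and 0 lower, with a median of 0.23. VR1_chr1.CM1255.320.nc, coded like the vestitone reductases that act late on the way to vestitol, changed by 2.42, 2.51 and 2.62 in lines 1, 2 and 3 (adjusted p = 0.0337), while VR2_chr1.CM0017.190.nc and VR3_chr1.CM1255.310.nc gave -0.29 and -0.05 on average (adjusted p = 0.552 and 0.948). Like I2H1 and I2H3, VR1 and VR3 share an identifier in their names, here chr1.CM1255. The difference between VR1 and VR3 was not tested. The 8 tested genes coded 7Methyl, methyltransferases, had a median of -0.12, and the lowest adjusted p among them was 0.0863, for 7Methyl2_chr2.CM0191.600.nc (-1.35).

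The I2H/CYP81E family thus had a lower median than each of these lists, also with normexp background correction (-0.30 against -0.08 to 1.00), with 2 of 8 genes above 0. Among 308 other tested cytochrome P450 genes, 7 were called higher and 10 lower, and 101 were above 0. Their median was -0.25 in the main fit and -0.12 with normexp background correction. Over all 2487 tested genes, 2.21% were called higher and 1.09% lower, and 1046 were above 0. These medians describe the genes on this array and were not tested against each other.

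**Figure D4:**
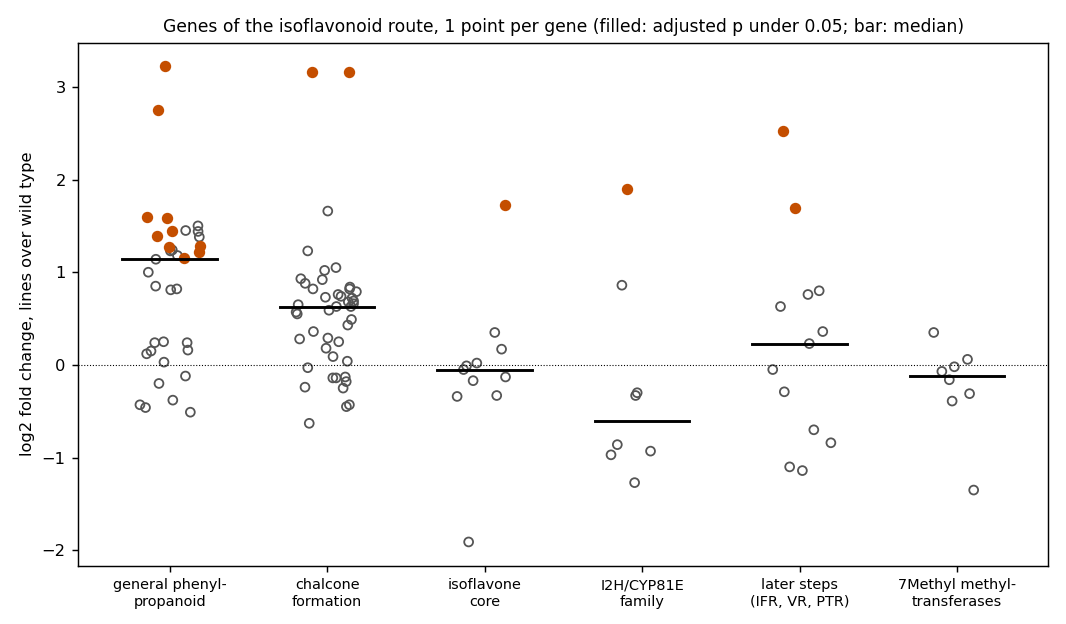
Log2 fold change of the transgenic lines over wild type for each tested gene (brightest probe) in 6 lists along the isoflavonoid route; filled points passed the adjusted test and the bar is the median of the list. Each list except the 7Methyl one holds at least 1 filled point, and the I2H/CYP81E median of -0.60 is the lowest of the 6.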

How the data were processed

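Each sample was read on 1 array with Agilent Feature Extraction 10.7.3.1, per the file headers and the submitters' processing notes. That software subtracted background and removed spatial trends array by array, per the file headers, so the deposited intensity carries no scaling across arrays. The series' value table held the same intensity in 91068 of 91068 cells (within 0.1%). All arrays lay on 1 slide with 1 scan time, with lines 2 and 3 in row 1 and the others in row 2.

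From these files, log2 intensity was centred on the 75th percentile of each array's 14642 non-control spots. Outlier-flagged spots, 32 to 78 an array, were dropped and the others averaged per probe (6358 probes). Probes well above background, in at least 0.5 of their spots, on at least 3 arrays were tested: 5039 probes, which cover 2487 genes. Names that share a locus count as 1 gene, represented by its probe with the highest mean. The test was limma 3.58.1 in R 4.3.3, with Benjamini-Hochberg adjustment over all tested probes, and 3 residual plus 2.54 prior degrees of freedom; the number of arrays limits the precision. A second fit took each probe minus the brightest I2H1 probe in the same sample. The code was tested on simulated data.

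All members are named. The members, lists and tests, and the averaging of wild type arrays 1 and 3, were chosen with earlier results of these data known, I2H1's call among them, so that call is not independent support. The 5 genes most like I2H1 follow a fixed distance rule. The reference gene table matched 0 of the family names, and no sequence is used here. Levels of probes served only to pick and pair them by brightness, to group them by wild type level and to judge nearness to background. Otherwise probes are compared by their changes or their deviations from their own means.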

Additional observations from a re-analysis of the deposited data

How the results depend on the processing

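Of the family counts, 0 genes called lower held in all 17 alternatives. The count of genes called higher, 1 in the report, was 2 with all 6 arrays counted singly (I2H1 and CYP81E6), 0 with spike-in scaling, 0 with the slide row as a block and 0 without wild type replicates 1 and 3 together; leaving out single arrays gave 0 to 1. Spike-in scaling moved the median of all probes to -0.31 from -0.09. In the row block wild type shares its row with line 1 only. The family median was -0.30 under normexp background correction, whose planned form needs a column the files lack and which was run on median signals, a choice made after seeing the data; single arrays left out gave -0.68 to -0.44. The count of genes lower than I2H1 was 6 or 7. I2H3 and CYP81ELT_1 turned to 0.09 and 0.04 without wild type array 2 and ranged down to -0.47 and -0.49 as single arrays were left out. Replicate numbers were not taken to pair samples. Deviations of same-numbered arrays correlated at 0.01, 0.17 and 0.07, and those of unlike-numbered arrays at -0.21 to 0.25. As wild type arrays 1 and 3 were nearly equal, these values cannot decide whether the numbers pair samples. With the replicate block and 6 arrays, 1 gene was called higher and 0 lower. Over all probes, calls were 116 higher and 57 lower in the report's fit, and 342 and 297 with 6 arrays counted singly. The replicate block gave 235 and 138. Spike-in scaling gave 13 and 8, and blocking on slide row 2 and 0. Leaving out line 1 gave 13 and 1, and leaving out line 3 gave 47 and 30. Where the family count fell to 0 in these fits, calls fell over the whole array too. A family count of 0 there thus shows nothing particular about the family. The causes of these shifts were not tested. Leaving out wild type array 2, or arrays 1 and 3 together, left 1 wild type sample, so the counts of those fits decide nothing here. Probes of I2H4 near background limit what can be said of it, and the low signal of I2H7 in line 2 limits its change there.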
